A study of Betula luminifera with 4 samples.

Results

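Roots and shoots of phosphate-supplied birch were compared for their microRNAs (miRNAs), using 1 root library (root CK) and 1 shoot library (shoot CK) out of 4 libraries in the study. Every named row of the deposited table was used and rows with an identical mature sequence were collapsed, which gave 215 of 215 distinct sequences. Known miRNA names cover 56 families, and a further 59 sequences are the authors' predictions, marked blu. Betula luminifera is a birch tree, and all plants belonged to clone G49, so a single genotype was sampled. Seedlings from tissue culture, with a listed age of 2 months, were moved to sterile sand. They were fed with phosphate for 2 weeks, then watered without it for 2 weeks to use up stored phosphate before the treatments. Under CK, the normal condition, they received 20 mL per day of medium with 1.25 mM KH2PO4. The remaining libraries, root LP and shoot LP, came from plants on medium in which KH2PO4 was left out and K2SO4 replaced the potassium. RNA of stems and leaves was mixed in equal amounts for each shoot library, so a shoot value cannot be assigned to stem or leaf. The 54 plants of the study were arranged in 3 blocks, but the labels do not tie blocks or plants to libraries. With 1 library a side there is no replicate check, no test and no p-value. The table holds miRNAs only, so the organ labels could not be checked against marker genes, and fewer cells of a type cannot be told apart from less RNA per cell.

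In plants a miRNA is cut from a folded precursor as a duplex. The guide strand is loaded into an Argonaute protein and directs the cleavage or repression of matching messenger RNAs, while the passenger strand from the opposite arm is usually degraded. Many families are shared by nearly all land plants and restrain transcription factors that set organ identity, growth and developmental phase. A family can have several genes, and members that differ by a base or by a few end positions can be made in different organs.

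The sequences below carry the main contrasts and are shown as deposited, 5′ to 3′ with T for U, with the seed (bases 2 to 8) in capitals. The first set are family members that leaned strongly to shoot CK.
miR171g: tATTGGCCtggttcactcaga
miR172a: gGAATCTTgatgatgctgcag
miR319a: tTGGACTGaagggagctccc
miR858: tTCGTTGTctgttcgaccttg
miR159a: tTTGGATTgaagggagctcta
miR394a: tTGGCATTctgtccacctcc
The second set leaned to root CK.
miR156b-3p: gCTTACTCtctatctgtcatc
miR160d: tGCCTGGCtccctgtatgtt
miR160b: tGCCTGGCtccctgtatgct
miR171i-5p: cGTGATATtggtacggctcatc
miR530b: tGCATTTGcacctgcacctcc
miR482h: gGAATGGGctatttgggaaga
miR166a-5p: gGAATGTTgtctggctcgagg
miR162a: tCGATAAAcctctgcatccag
The third set are relatives of these and a pair of nested forms, printed for comparison within families.
miR156a/b/c: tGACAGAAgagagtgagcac
miR160a: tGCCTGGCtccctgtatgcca
miR166a: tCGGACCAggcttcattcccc
miR171a: tGATTGAGccgtgccaatatc
miR399a: tGCCAAAGgagaattgccctg
miR399c: tGCCAAAGgagaattgccc

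Levels below are the authors' normalized reads, folds are plain ratios of them, and log2 ratios are log2((root CK + 1)/(shoot CK + 1)), which understate the difference of low values. The interval in parentheses after a fold is an exact 95% interval of counting error alone. Raw reads of the 215 sequences summed to 308667 in root CK and 1015833 in shoot CK, 3.29 times more in the shoot library, and 1 read was worth 1.02 normalized reads in root CK and 0.517 in shoot CK. A sequence or family was measured when it reached 10 normalized reads in either CK library, and it was called higher or lower at 2-fold.

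Of 142 measured sequences, 37 (26.1%) were at least 2-fold higher in root CK and 54 (38%) at least 2-fold lower, together 64.1% of those measured. The counting interval excluded equality for all 37 higher sequences and for 53 of the 54 lower ones. A further 51 lay within 2-fold, and the median log2 ratio of the 142 was -0.44. The calls include 5 higher sequences listed at 0 in shoot CK and 4 lower ones listed at 0 in root CK, for which no fold is given. Among sequences above 0 in both libraries, a gap of 4-fold or more was found for 15 higher and 30 lower ones, and one of 16-fold or more for 4 higher and 6 lower ones. Among the 80 sequences that reached 100 normalized reads, 21 (26.2%) were higher and 33 (41.2%) lower, together 67.5%. The other 73 sequences stayed below 10 in both libraries. Of the 10 most abundant sequences of each library, which held 81.3% of the reads in root CK and 86.4% in shoot CK, 5 were in common.

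The balance between higher and lower depended on how the libraries were scaled, because the shoot library had 1.66 times more normalized reads in the table. Scaling to the table total moved the plain ratios toward root by 0.73 on the log2 scale, leaving out tRNA-like families by 0.79, TMM by 0.11 and the median of ratios by 0.25. On the log2 scale with 1 added, low values moved less, and sequences at 0 in root CK did not move. The split of 37 higher and 54 lower sequences then became 54 and 37 on the table total, with or without the tRNA-like families, 38 and 51 with TMM, and 41 and 49 with the median of ratios. All 37 higher sequences and 37 of the 54 lower ones kept their call under all 4 scalings. Those that did not include miR160c, miR167a, miR171a, miR172f, miR390a-3p, miR482b, miR7122a, blu-miR6-5p and blu-miR7-3p. Since all 4 scalings moved ratios toward root, no higher call could be lost, and only lower calls were open to loss. Sequences listed at 0 in 1 library kept their call by rule. Ratios between members of a family, or between arms of a precursor, are the same under every scaling, since it multiplies all sequences of a library alike.

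**Figure D1:**
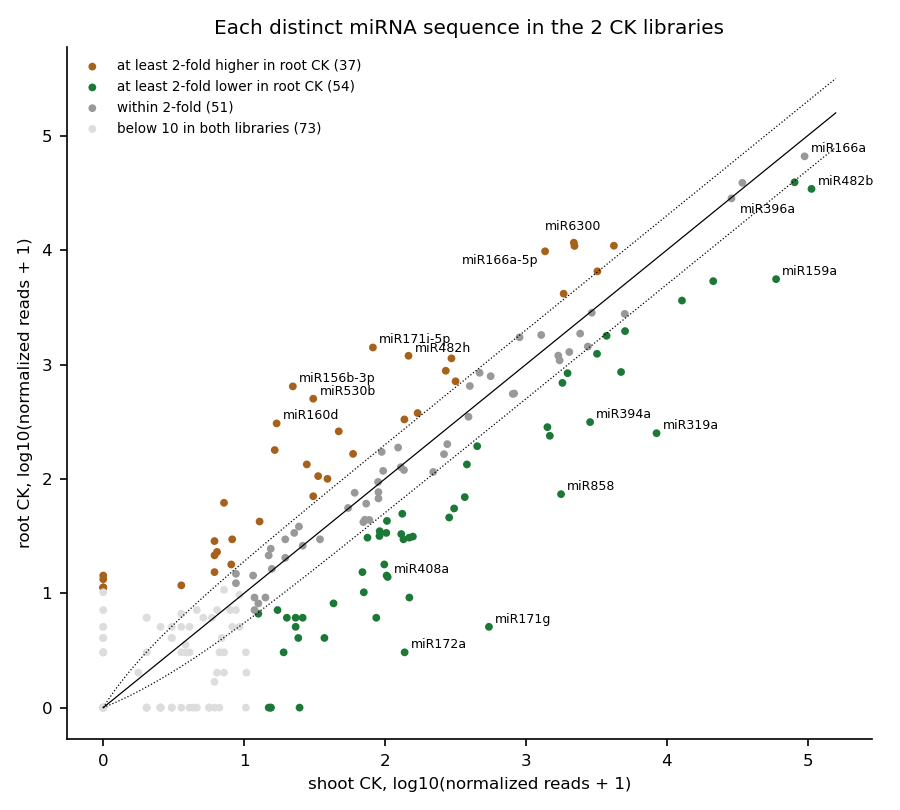
Normalized reads of the 215 distinct sequences in root CK (vertical axis) against shoot CK (horizontal axis), both as log10(value + 1), with the line of equality solid and 2-fold dotted. miR319a, miR858 and miR171g lie far below the line, and miR156b-3p, miR160d, miR171i-5p and miR530b far above it.

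Families were summed over their members. Of 42 measured families, 8 (19%) were at least 2-fold higher in root CK and 15 (35.7%) at least 2-fold lower, together 54.8%, and the median log2 ratio was -0.52. The 8 higher families and 10 of the 15 lower ones kept their call under all 4 scalings. As with the sequences, a higher call could not be lost, because every scaling moved ratios toward root.

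The development families target mainly transcription factors of organ growth and phase change. Of 9 measured, 4 were lower and 0 higher, beside 35.7% lower and 19% higher over all families. miR319, which restrains TCP genes of leaf growth, had 311 normalized reads in root CK against 8894 in shoot CK and was 28.6-fold (25.6 to 32.2) lower. All 6 of its members were at least 2-fold lower. miR394, which targets an F-box gene that acts in the shoot meristem, stood at 326 in root CK and 3029 in shoot CK, 9.29-fold (8.301 to 10.4) lower. miR159, which targets GAMYB genes, stood at 8443 in root CK and 62876 in shoot CK, 7.45-fold (7.28 to 7.62) lower. miR172, which targets AP2-type genes and accompanies the adult phase, stood at 157 in root CK and 548 in shoot CK, 3.49-fold (2.94 to 4.15) lower. These 4 calls held under all 4 scalings.

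The remaining development families lay within 2-fold. miR156, which targets SPL genes and marks the juvenile phase, had 48541 normalized reads in root CK and 40005 in shoot CK, a log2 ratio of 0.28 that became 1.01 on the table total, just past 2-fold. miR164, which targets NAC genes of organ boundaries, had a log2 ratio of -0.84. miR166, which targets HD-ZIP III genes, stood at 87016 in root CK and 100964 in shoot CK, and its log2 ratio of -0.21 turned to 0.52 on the table total. miR171, which targets GRAS genes of the SCARECROW-like group, had a log2 ratio of -0.71 that turned to 0.03 on the table total. miR396, which targets growth-regulating factors, stood at 29274 in root CK and 29545 in shoot CK, and its log2 ratio of -0.01 turned to 0.72 on the table total and 0.10 with TMM. The list's median of -0.84 stood beside -0.52 for all families.

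Among the 4 auxin-signalling families, 2 were lower and 0 higher, beside 35.7% lower and 19% higher over all families. The median log2 ratio of the list was -0.63. miR167, which targets auxin response factors, had 2892 normalized reads in root CK and 8490 in shoot CK and was 2.94-fold (2.82 to 3.06) lower. miR390, which triggers trans-acting siRNAs that target other auxin response factors, had 1914 in root CK and 4124 in shoot CK and was 2.15-fold (2.05 to 2.27) lower. The call of miR167 ended on the table total, and that of miR390 under all 4 scalings. miR160, which targets a further set of auxin response factors, had a log2 ratio of -0.15 that turned to 0.59 on the table total, and miR393, which targets auxin receptors, one of 0.82 that passed 2-fold at 1.56 on the table total and 1.07 with the median of ratios.

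Of 4 measured silencing machinery families 1 was higher and 0 lower, beside 19% higher and 35.7% lower over all families, and the median log2 ratio was -0.06. miR162, which targets the Dicer-like enzyme that cuts miRNA precursors, had 11006 normalized reads in root CK and 2343 in shoot CK and was 4.697-fold (4.54 to 4.86) higher. miR168, which targets the main Argonaute, had 1843 in root CK and 2097 in shoot CK, a log2 ratio of -0.19 that turned to 0.55 on the table total. miR403, which targets another Argonaute, had a log2 ratio of -0.65 that turned to 0.08 on the table total. miR1515, which targets a Dicer-like gene in legumes, was at 93.0 in root CK and 88.4 in shoot CK.

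Nutrient families are set beside the 35.7% of all families that were lower in root CK. Of 3 copper-responsive families 2 were lower and 0 higher, with a median log2 ratio of -1.38. miR408, which targets copper proteins such as plantacyanin, had 12.9 normalized reads in root CK and 104 in shoot CK and was 8.04-fold (4.45 to 14.9) lower. miR398, which targets copper/zinc superoxide dismutases, had 54.9 in root CK and 144 in shoot CK and was 2.63-fold (1.95 to 3.57) lower, and it was no longer called on the table total. miR397, which targets laccases, had 394 in root CK and 430 in shoot CK, a log2 ratio of -0.13 that turned to 0.61 on the table total. Both sulfate and nitrogen families were lower, with a median of -2.38. miR169, which targets NF-YA transcription factors, had 698 in root CK and 3028 in shoot CK and was 4.34-fold (4.002 to 4.696) lower. miR395, which targets ATP sulfurylases and a sulfate transporter, had 18.4 in root CK and 120.4 in shoot CK and was 6.55-fold (4.05 to 11.2) lower. miR399, which limits the ubiquitin-conjugating enzyme PHO2 and so favours phosphate uptake, had 610.3 in root CK and 971 in shoot CK, a log2 ratio of -0.67 that turned to 0.07 on the table total. miR2111, the only other phosphate-starvation family in the table, stayed below 10 in both libraries.

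All 3 families of the immune receptor and MYB list were lower in root CK, beside 35.7% of all families. The median log2 ratio of the list was -2.51. miR858, which targets MYB genes of phenylpropanoid metabolism, had 72.5 normalized reads in root CK and 1777 in shoot CK and was 24.5-fold (19.4 to 31.4) lower. miR828, which also targets MYB genes, rested on 7 reads in root CK and 88 in shoot CK and was 6.36-fold (2.96 to 16.3) lower. miR482, a 22-nt family that targets disease resistance genes, was the most abundant family of shoot CK, with 44654 in root CK and 141326 in shoot CK, 3.16-fold (3.13 to 3.197) lower. The miR482 call ended on the table total.

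Root CK was richer in several families outside these lists. miR530, a less studied family, had 543 normalized reads in root CK and 37.2 in shoot CK and was 14.6-fold (11.4 to 18.96) higher. miR477 had 1245 in root CK and 515 in shoot CK and was 2.42-fold (2.22 to 2.63) higher, and miR3627 had 104 in root CK and 39.1 in shoot CK, 2.67-fold (1.95 to 3.62) higher. miR1511, at 16 reads in root CK and 10 in shoot CK, was 3.16-fold (1.35 to 7.80) higher, and miR10518 had 10 reads in root CK and was listed at 0 in shoot CK. In contrast, miR536 was 5.81-fold (3.60 to 10.7) lower and miR2950 2.31-fold (1.97 to 2.71) lower, of which miR2950 did not keep its call under all 4 scalings.

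The tRNA-like list, whose sequences resemble pieces of tRNAs rather than hairpin products, had 2 higher, 0 lower and a median log2 ratio of 0.94 over 5 families. Over all families, 19% were higher and 35.7% lower. miR6300 had 11617 normalized reads in root CK and 2191 in shoot CK and was 5.303-fold (5.12 to 5.49) higher. miR5072 was 2.42-fold (2.05 to 2.86) higher, whereas miR894 was at 0.94 on the log2 scale and passed 2-fold under the other scalings, from 1.05 with TMM to 1.73 on the table total without tRNA-like families. miR8175 was at 0.67 and reached 1.40 on the table total. miR6478 was at -0.38, which turned to 0.35 on the table total. Of all list families, miR162, miR6300 and miR5072 were at least 2-fold higher with the authors' constants.

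**Figure D2:**
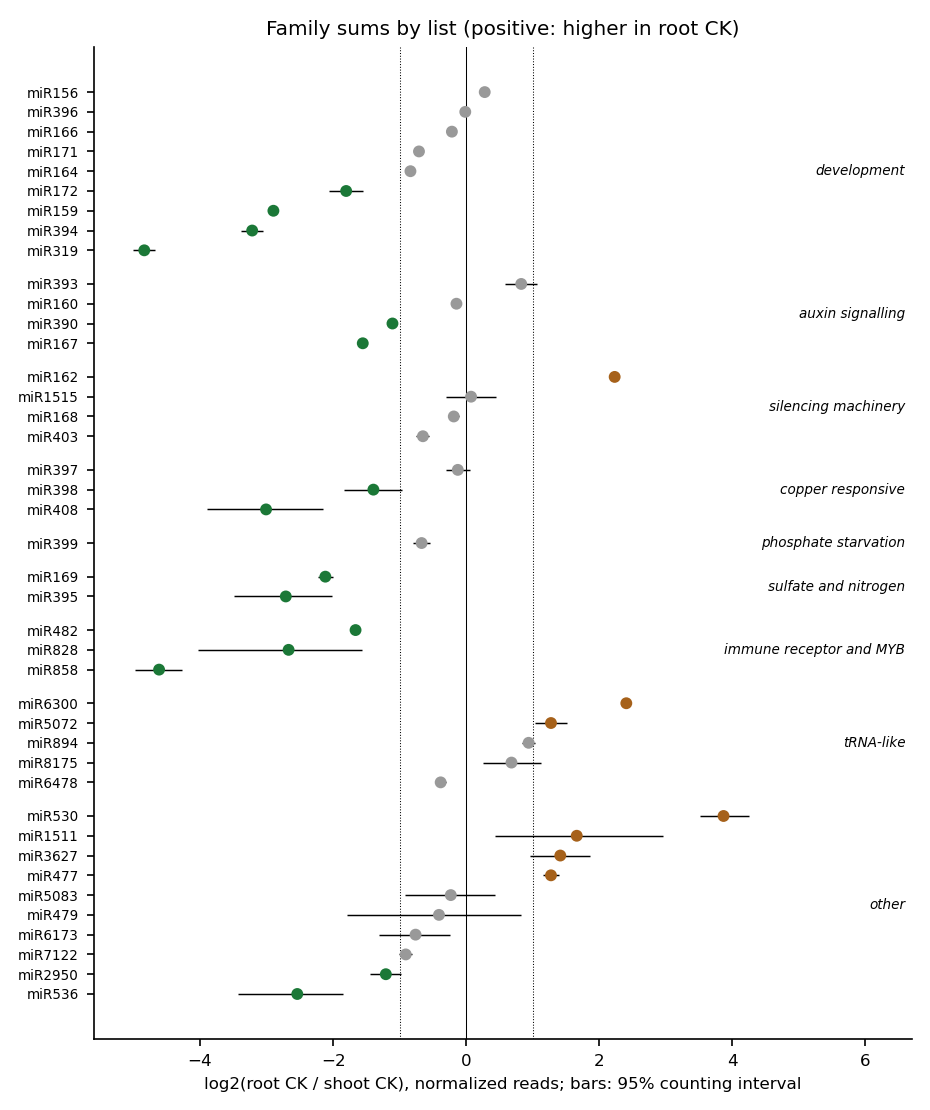
Log2 ratio of root CK over shoot CK for the family sums measured and above 0 in both libraries, grouped by list, with bars for the 95% counting interval, dotted lines at 2-fold, and brown for higher, green for lower and grey for within 2-fold. miR162, miR6300, miR5072 and miR530 lie to the right, and the development, nutrient and MYB families with the widest gaps (miR319, miR858, miR394) to the left.

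A family sum could hide opposite preferences among its members, which include strands of both arms. Of 27 families with at least 2 measured members, 20 had members whose ratios differed at least 4-fold. With the authors' constants, 10 had a member at least 2-fold higher beside another at least 2-fold lower. Over all measured sequences, 26.1% were higher and 38% lower. Several spans set a guide beside a strand of the opposite arm, as in miR159, miR162, miR166, miR167, miR169 and miR7122. The most abundant member of the family was a different sequence in root CK and shoot CK in 5 of the 27.

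miR171 had the widest span, 10.85 on the log2 scale over 7 measured members of 10, of which 2 were higher and 4 lower. miR171g had 4 reads in root CK and 1057 in shoot CK, a 134-fold (52.03 to 491) lower level. Its seed ATTGGCC differs from the GATTGAG of miR171a and its name gives no arm, so it is not known here to be a guide. miR171i-5p, named for the 5′ arm, had 1408 normalized reads in root CK and 81.1 in shoot CK, 17.4-fold (14.7 to 20.6) higher. The main member miR171a was at 1959 in root CK and 5062 in shoot CK, a log2 ratio of -1.37. As a result the family had a different makeup in each organ: miR171a made up 38.3% of its reads in root CK (37.0% to 39.7%) and 60.6% in shoot CK (59.9% to 61.4%). miR171i-5p made up 27.6% in root CK (26.3% to 28.8%) and 0.971% in shoot CK (0.826% to 1.14%). miR171j-5p, also named for the 5′ arm, had the opposite lean with a log2 ratio of -3.83, from 5 reads in root CK and 166 in shoot CK. miR171e was lower as well at -2.41, and miR171f higher at 1.14.

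miR160 was balanced as a sum, and its members with the seed GCCTGGC were split by the end of the mature sequence. These 4 members had log2 ratios from -1.29 to 4.17 and one of -0.55 when summed. The family sum also holds miR160a-3p, named for the 3′ arm, with a log2 ratio of 1.71. It held 31.2% of the family's reads in root CK and 8.61% in shoot CK. The 21-nt miR160a and miR160c, which end in CCA and differ by T15A (counted from the 5′ end of miR160a), had log2 ratios of -0.94 and -1.29. The 20-nt miR160d and miR160b, which differ from each other by T19C, were 19.0-fold (13.1 to 28.5) and 11.5-fold (7.75 to 17.5) higher. In levels, miR160d had 304 normalized reads in root CK and 16.0 in shoot CK, and miR160b 178 in root CK and 15.5 in shoot CK. Of the family's reads, miR160a held 50.7% in root CK and 88.0% in shoot CK, and miR160d 10.8% in root CK and 0.512% in shoot CK.

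The 3 measured miR172 members with the seed GAATCTT were at least 2-fold lower in root CK with the authors' constants, miR172f not under every scaling. miR172a had 2 reads in root CK and 265 in shoot CK, a 67.0-fold (18.4 to 556) lower level, and miR172d was 5.701-fold (4.304 to 7.71) lower. miR172f, which differs from miR172d by T20A, had a log2 ratio of -1.40. miR172e-5p, listed on the 5′ arm and with another seed, was the only measured member that was higher, with 59.5 reads in root CK and 12 in shoot CK and a log2 ratio of 3.10. It was the most abundant miR172 sequence of root CK with 38.7% (31.2% to 47.1%) of the family's reads, against 1.13% (0.586% to 1.97%) in shoot CK.

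miR156 was nearly even in its main member and uneven in its passenger strands. miR156g held 79.8% of the family's reads in root CK and 86.1% in shoot CK and had a log2 ratio of 0.17. miR156b-3p had 643 normalized reads in root CK and 21.2 in shoot CK, 30.3-fold (22.1 to 42.7) higher, the highest ratio of any sequence with at least 100 normalized reads. miR156a-3p/miR156c-3p, the passenger strand of other precursors, had 557 in root CK and 825 in shoot CK, a log2 ratio of -0.57. miR156j-3p, the second most abundant member, had 6529 in root CK and 3222 in shoot CK, a log2 ratio of 1.02. The 6 measured members with the seed TGACAGA lay between -0.28 and 1.19.

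Nested forms of the same mature miRNA could differ in organ ratio. The 19-nt miR399c lacks the last 2 bases of the 21-nt miR399a and was otherwise identical. miR399c had 27.6 normalized reads in root CK and 5.17 in shoot CK, a log2 ratio of 2.21, whereas miR399a had 30.3 in root CK and 157 in shoot CK, one of -2.33. The main member miR399b had 552 in root CK and 807 in shoot CK. Over all 10 nested pairs, the longer form had the lower log2 ratio in 7 and the higher in 3, and 6 pairs differed at least 2-fold. Each of the 3 includes a sequence listed at 0 in root CK (miR395a, miR319c or miR319e). The log2 ratio of such a sequence depends on the 1 added, so the size of these 3 differences, and for miR319 their direction, is not settled. Of 11 pairs that differ by 1 base, 4 differed at least 2-fold, and the median difference was 0.39 on the log2 scale.

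In miR167 the 22-nt miR167b was 5.52-fold lower, with 859 normalized reads in root CK and 4741 in shoot CK, and the 21-nt miR167a had a log2 ratio of -1.37. miR167a was therefore the main form in root CK with 42.9% of the family's reads and miR167b in shoot CK with 55.8%. miR169 had miR169c as its main form in root CK and miR169a in shoot CK, but their ratios of -2.33 and -2.64 were close. miR398a and miR398b had log2 ratios of -1.99 and 1.14, the second from 16.5 reads in root CK and 13.75 in shoot CK. In miR396, miR396a had a log2 ratio of -0.02 and miR396d-3p was listed at 0 in root CK and had 46 reads in shoot CK.

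In miR482 the 3 most abundant members, all of 22 nt, had close log2 ratios of -1.64 for miR482b, -1.82 for miR482c and -2.00 for miR482a. The 22-nt miR482g lay within 2-fold at -0.67. miR482f-3p was at -2.65 from 2 reads in root CK and 35 in shoot CK. The 21-nt miR482h, listed on the 5′ arm, was the only measured member that was higher, at 1191 normalized reads in root CK and 146 in shoot CK, 8.16-fold (7.17 to 9.35) higher.

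miR319 members were lower on both arms, from -5.08 for miR319a to -2.40 for miR319d-5p. In miR394 the 21-nt miR394b, which carries 1 more base at the 5′ end than miR394a, was 18.1-fold (9.05 to 42.3) lower and miR394a 9.14-fold (8.15 to 10.3) lower. miR530 was the only family with a span of 4-fold or more whose measured members were all higher, with miR530b at 490.5 reads in root CK and 58 in shoot CK, 16.7-fold (12.7 to 22.3) higher. miR530a had a log2 ratio of 1.85, and miR530c had 13 reads in root CK and was listed at 0 in shoot CK.

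**Figure D3:**
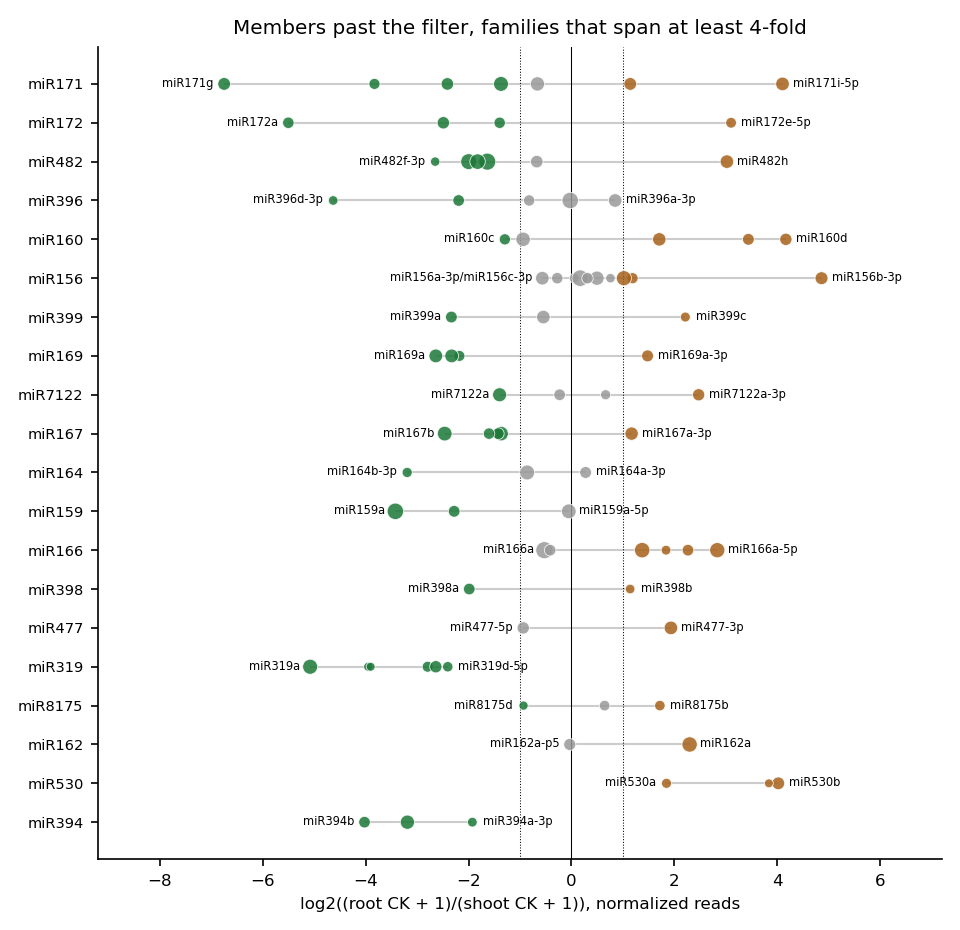
Log2 ratio of root CK over shoot CK for each measured member of the 20 families whose members span at least 4-fold, with point size by mean level, colours by 2-fold call (brown higher, green lower, grey within) and the lowest and highest member named. miR171, miR172, miR482 and miR160 have members on both sides of the 2-fold lines, while miR319 and miR394 lie wholly to the left and miR530 to the right.

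Several of the highest ratios above belonged to strands from the less abundant arm of a precursor. To compare arms, sequences that the table places on opposite sides of the same hairpin were paired, and the major arm was taken from the LP libraries, which the CK comparison did not use. Of 21 pairs with both arms measured, the minor arm had the higher root over shoot ratio in 15 and the lower in 6. The gap was at least 2-fold in favour of the minor arm in 12 pairs and against it in 3, with a median of 1.20 on the log2 scale. Summed over the 21 pairs, minor arms held 11.9% of the reads in root CK (11.8% to 12.1%) and 3.18% in shoot CK (3.14% to 3.23%). The miR156a/b/c reads entered this sum more than once, so its intervals do not rest on distinct reads alone. In root CK the largest minor arm was miR166a-5p, with 9558 reads. The miR156a/b/c sequence is listed for 3 precursors, so its reads are shared among them, and without its pairs the count was 14 of 19.

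In miR166, the arm opposite to the guide made up 12.9% of the pair's reads in root CK (12.6% to 13.1%) and 1.42% in shoot CK (1.36% to 1.47%). The strand concerned, miR166a-5p, had 9766 normalized reads in root CK and 1369 in shoot CK, while miR166a had 66100 in root CK and 95255 in shoot CK. The hairpin listed for this pair (transcript TRINITY_DN25866_c2_g1, positions 20 to 218 of the authors' assembly) has miR166a-5p on its 3′ side, against its name, so the arm is uncertain while the reads are not. A related strand, miR166f-5p, was also 4.94-fold (3.56 to 6.96) higher. Of the 6 miR166 members 4 were higher and 0 lower, and the abundant miR166d had 10928 normalized reads in root CK and 4218 in shoot CK. Leaving out sequences with fractional reads, among them miR166a, turned the log2 ratio of the family sum to 2.75.

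In miR159 the opposite strand miR159a-5p took 33.7% of the reads in root CK (32.7% to 34.7%) and 4.69% in shoot CK (4.57% to 4.81%). Here the guide differed, at 5577 normalized reads in root CK and 59778 in shoot CK, while miR159a-5p was even at 2835 in root CK and 2940 in shoot CK. For miR160a the opposite strand took 38.0% in root CK and 8.91% in shoot CK. For miR167b, paired with miR167a-3p, it took 45.3% in root CK and 6.25% in shoot CK. miR167a is listed on an overlapping hairpin of the same transcript, so the partner of miR167a-3p is uncertain. For miR169a the opposite strand took 41.0% in root CK and 3.80% in shoot CK. The shares were 27.3% in root CK and 2.47% in shoot CK for miR7122a, and 35.1% in root CK and 19.0% in shoot CK for miR168a. In miR477, whose arms have no precursor in the table, miR477-3p held 90.9% of the family's reads in root CK and 57.4% in shoot CK. The higher call of the miR477 sum came from miR477-3p, with a log2 ratio of 1.93, while miR477-5p was at -0.94.

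miR162 was the clearest exception. Its guide miR162a had 10880 normalized reads in root CK and 2214 in shoot CK, 4.91-fold (4.74 to 5.09) higher, while miR162a-p5 was even at 126 in root CK and 129 in shoot CK. The minor arm therefore made up 1.14% of the pair in root CK (0.95% to 1.36%) and 5.49% in shoot CK (4.85% to 6.19%). miR390a-3p also leaned to shoot relative to its guide, at 6.94% of the pair in root CK and 9.23% in shoot CK, and so did miR156a-3p/miR156c-3p.

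**Figure D4:**
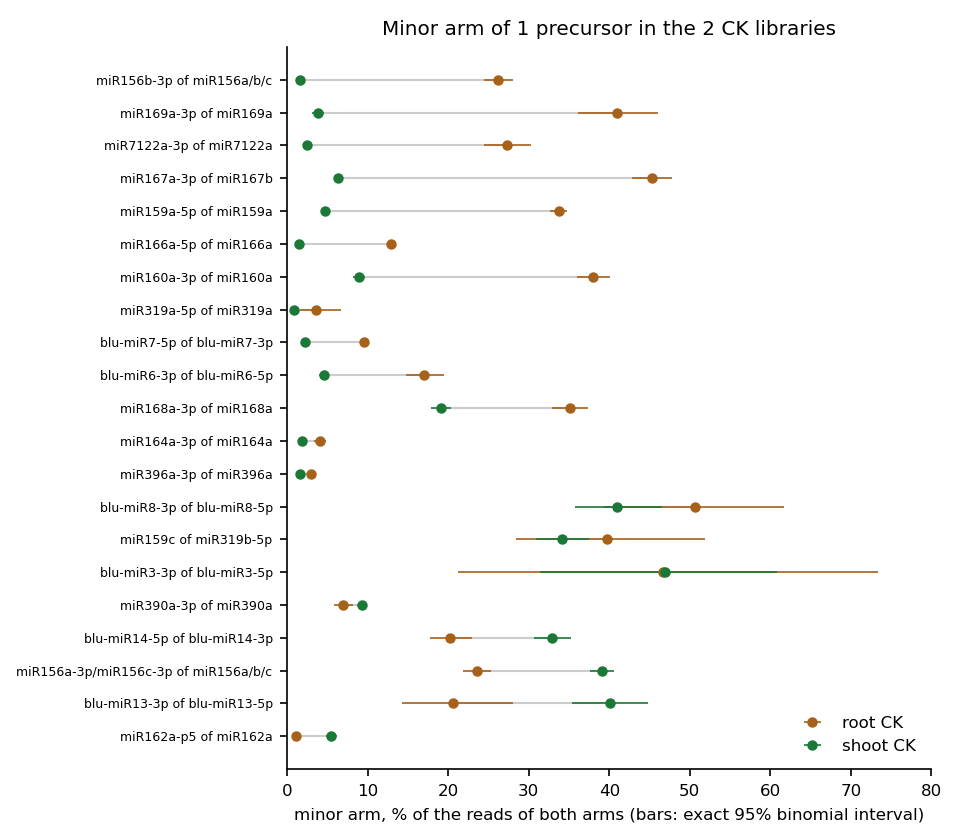
Share of the minor arm in the reads of both arms of a precursor, in root CK and shoot CK, for the 21 pairs with both arms measured; bars are exact 95% binomial intervals. The root CK point lies to the right in most pairs, as for miR166a-5p with 12.9% in root CK and 1.42% in shoot CK, and to the left for miR162a-p5.

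The first base differed as well. Sequences starting with G held 10.2% of the reads in root CK (10.1% to 10.3%) and 1.56% in shoot CK (1.54% to 1.58%), and of 15 measured ones 10 were higher and 3 lower, beside 26.1% higher and 38% lower over all measured sequences. Most plant guides start with U, and of 82 measured sequences with a 5′ U, 18 were higher and 34 lower. Reads with another first base came in root CK chiefly from miR6300 (26.6% of them), miR166a-5p (22.4%) and miR156j-3p (14.95%), and in shoot CK from the guide miR390a (17.2%), miR156j-3p (14.8%) and miR159a-5p (13.5%).

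By length, the 19 measured sequences of 22 nt had a median log2 ratio of -1.42, with 2 higher and 11 lower, again beside 26.1% higher and 38% lower over all. The 79 of 21 nt had one of -0.05, with 23 higher and 26 lower. The 4 of 18 nt had 3 higher and 0 lower, and the 14 of 24 nt had 1 higher and 6 lower. Sequences of 20 nt held 1.05% of the reads in root CK and 2.58% in shoot CK, a class that in shoot CK contained miR319a and miR394a.

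The predicted sequences comprised 25 measured ones, of which 6 (24%) were higher and 7 (28%) lower, together 52%. Of 117 measured known sequences, 31 (26.5%) were higher and 47 (40.2%) lower, together 66.7%. blu-miR7-3p had 39205 normalized reads in root CK and 80894 in shoot CK, 2.06-fold (2.04 to 2.09) lower. With TMM it lay within 2-fold. Its opposite strand blu-miR7-5p had 4162 in root CK and 1854 in shoot CK, 2.24-fold (2.15 to 2.35) higher. blu-miR6-5p had 838 in root CK and 1977 in shoot CK, 2.36-fold (2.19 to 2.55) lower, but at -0.50 on the table total and -0.99 with the median of ratios, and its partner blu-miR6-3p had a log2 ratio of 0.86. blu-miR14-3p and blu-miR14-5p had log2 ratios of 0.49 and -0.46.

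Listing in only 1 organ rested on few reads. Among the 215 sequences, 24 were listed at 0 in root CK and above 0 in shoot CK, 14 were the reverse, and 11 were at 0 in both. Of these, 4 measured sequences were at 0 in root CK, namely miR396d-3p with 46 reads in shoot CK, miR319c with 28, miR395a with 28 and miR319e with 27. A further 5 were at 0 in shoot CK, with 10 to 13 reads in root CK: miR530c, miR10518, blu-miR32-3p, blu-miR33-3p and 1 of 2 sequences named blu-miR12-3p. Only 4 of 370 values above 0 in the CK libraries were exactly 1 read, so a listed 0 may hide a read and no limit or fold is given. A log2 ratio printed for such a sequence depends on the 1 added.

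The LP pair of libraries, which shares no library with the CK pair, was set beside it. Of the 37 sequences higher in root CK, 34 were measured under LP, with 26 higher by 2-fold or more in root LP as well, 8 within 2-fold and 0 lower. Of the 54 lower ones, 50 were measured under LP, with 36 at least 2-fold lower, 11 within 2-fold and 3 higher, among them miR395a, which was listed at 0 in 1 library of each pair. Over all 158 sequences measured under LP, 34.8% were at least 2-fold higher in root LP and 38% lower. miR166a-5p had nearly the same log2 ratio in both pairs, 2.87 under LP and 2.83 under CK. Other members differed more: miR530b was at -0.63 under LP and 4.02 under CK, and miR858 at -0.71 under LP and -4.60 under CK. For miR169a the values were 0.70 under LP and -2.64 under CK. The LP value of miR530b rests on few reads, since the whole miR530 family had 5 in root LP and 20 in shoot LP. Among the 21 arm pairs, the minor arm had the higher ratio in 13 under LP and 15 under CK.

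**Figure D5:**
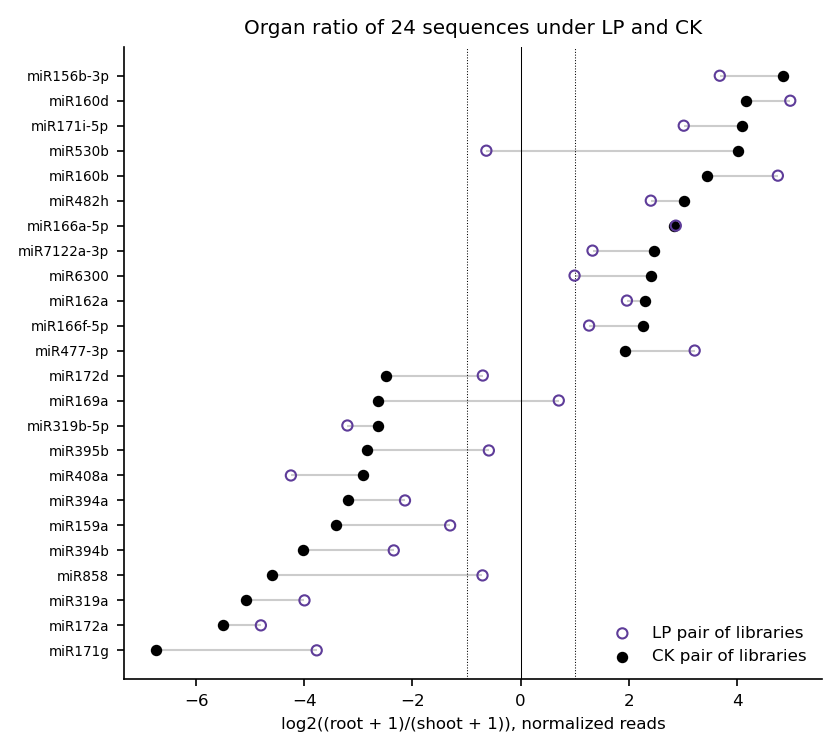
Log2 ratio of root over shoot in the LP pair (open) and the CK pair of libraries (filled) for the 12 highest and the 12 lowest sequences under CK with at least 100 normalized reads. Most open points lie on the same side as the filled ones, with miR530b and miR169a on the other side of 0. The open point of miR530b rests on few reads.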

How the data were processed

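Small RNA libraries were made with a TruSeq kit and read as 36-nt single reads, per the labels' protocols. The raw columns hold estimated counts as deposited by the authors, some fractional, in 70 sequences in a CK library, and they were rounded to whole reads for intervals. The norm columns hold a signal that, per the file headers, is normalized; it equals the deposited raw column times 1 constant per library. How reads were aligned and counted, which miRBase release named them and how the constants were chosen was not given in the sources used here. Totals are those of the table, not library depths. Of 221 named rows, 6 repeated a sequence; 2 lines were blank.

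Families sum sequences with the same number after miR. Intervals are exact 95% Clopper-Pearson intervals, conditional on both libraries for folds, and cover counting error only, since PCR copies are not independent molecules. Arms were placed on the listed hairpin with at most 2 mismatches. Ratios were also computed with edgeR 4.0.16 TMM factors, the median of ratios over 127 sequences, table totals, a pseudocount of 10 in place of 1, filters of 0 and 100, all rows, and without fractional sequences (Python 3.11.15, scipy 1.17.1). The code for the 2-fold calls and the counting intervals was tested on simulated data, and the scaling code was not. Members, the 8 lists and all rules were chosen with earlier results of these data known. Named are all measured list families, the 10 most abundant families, the 12 highest and 12 lowest sequences of at least 100, those at 0 in 1 library, extremes and main members of families spanning 4-fold, 6 predicted sequences and arm pairs 2-fold apart; examples within these groups are given and the rest counted. Families and sequences outside these groups were picked after their values were seen.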

Additional observations from a re-analysis of the deposited data

Results flagged for a closer look

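The organ ratio was at least 2-fold in opposite directions under LP and CK for 3 sequences and 1 family. The difference was not tested, since each ratio rests on 1 library a side. miR2950a, which makes up nearly all of miR2950, had a log2 ratio of 1.10 under LP, from 288 normalized reads in root LP and 133 in shoot LP, against -1.23 under CK, from 192 in root CK and 451 in shoot CK. The family sum was at 1.10 under LP and -1.20 under CK. The 19-nt miR395a had 12 reads in root LP and was listed at 0 in shoot LP, while under CK it was listed at 0 in root CK and had 28 reads in shoot CK. Its log2 values of 5.08 under LP and -3.95 under CK depend on the 1 added before taking logs and are no folds. The tRNA-like miR8175d had a log2 ratio of 1.99 under LP, from 4.5 reads in root LP and 3 in shoot LP, against -0.93 under CK, where its plain ratio passed 2-fold, from 5.5 in root CK and 22.5 in shoot CK.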

How the results depend on the processing

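No paired analysis was possible because each group has 1 library and the result comes from no test; for the same reason no replicate could be left out. A filter of 100 left 21 sequences higher and 33 lower in root CK, no filter gave 82 lower, and leaving out sequences with fractional raw values gave 33 lower, 11 families spanning 4-fold and 7 of 10 arm pairs with the minor arm higher. Counts of families higher ranged from 6 to 12 and of families lower from 10 to 17. The share of reads with a 5′ U was 86.2% in root CK and 95.9% in shoot CK, 89.95% in root CK and 96.7% in shoot CK without the tRNA-like families, and 86.3% in root CK over all rows. With a filter of 100, 34 of 45 sequences kept their organ call under LP, against 62 of 84. The number of lower list families was 13, and 9 to 12 under other scalings. The alternatives for arms, first bases, LP and the lists were chosen after seeing the data. Of 629 recomputed ratios of the 100 named families and sequences, 353 stayed inside the counting interval and 276 moved outside it. Some of the 353 could not move. Sequences listed at 0 in root CK had the same value under all 4 scalings. A family of 1 sequence had the same value when only its most abundant sequence was used. None reversed the sign of a 2-fold call. A lost call, or a sign change of a ratio within 2-fold, was not counted as a reversal. Root CK, with fewer reads, limits the precision.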
